A study of Homo sapiens with 12 samples.

Results

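The Frizzled receptor family comprises 10 genes, FZD1 to FZD10, out of 17240 genes that could be named on these arrays. All probes whose RefSeq accession maps to one of these genes were taken as members, which gave 14 probes, each printed in 1 spot: 3 for FZD5, 2 each for FZD1 and FZD4, and 1 for each of the other genes. Where a gene has several probes they are numbered, so that FZD1 (1) and (2) are A_23_P134502 and A_24_P38276, FZD4 (1) and (2) are A_23_P64617 and A_24_P278621, and FZD5 (1), (2), and (3) are A_23_P108437, A_23_P397999, and A_24_P148503. Expression was profiled on 12 dual-color Agilent arrays, of which 6 carried Ls174T RNA, a line from a human colorectal cancer, and 6 carried HEK293T RNA, a human embryonic kidney line. All cells received 15 nM siRNA for 72 h. The Ls174T groups were si-control, si-b-catenin, si-MLLT10, si-BRG1, and si-P300, with no conditioned medium stated in the labels. The HEK293T groups were si-control in control medium (CM), and, in Wnt3A conditioned medium, si-control, si-DOT1L, si-MLLT10, si-P300, and si-BRG1, with both media given for 9 h at the end of the culture. The β-catenin-depleted and si-control RNAs were hybridized against each other on 2 arrays with the dyes exchanged, and the other 10 samples were each hybridized against the same human reference RNA. With 1 biological replicate per condition, a difference cannot be set against the spread between cultures, and p-values were not computed. The ± after a value is the Feature Extraction program's error on the log2 scale and leaves out that spread, and a value is called beyond error where it lies outside the 95% range of this error.

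Frizzled proteins are multi-pass membrane receptors that bind Wnt ligands through an extracellular cysteine-rich domain. Together with the co-receptors LRP5 and LRP6 they recruit Dishevelled, inhibit the destruction complex, and let β-catenin accumulate and act with TCF factors in the nucleus, and several of them also act in planar cell polarity. In the intestine, Wnt signaling through these receptors maintains the crypt, and the ubiquitin ligases RNF43 and ZNRF3 remove Frizzled receptors from the cell surface. By sequence the family falls into the FZD1, FZD2, and FZD7 group, the FZD5 and FZD8 group, the FZD4, FZD9, and FZD10 group, and the FZD3 and FZD6 group, and the results follow these groups.

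The siRNA targets were lower in their own samples: CTNNB1 by −2.70 and −2.49 on its 2 probes, MLLT10 by −1.42 in Ls174T and −1.76 in HEK293T cells, SMARCA4, which encodes BRG1, by −2.53 to −2.24 and by −4.00 to −3.95, and EP300 by −1.31 and −0.60 in Ls174T and by −2.98 and −2.35 in HEK293T cells, all as log2 changes. DOT1L was lower on 2 probes, by −1.97 and −1.41, and at 0.17 on the third. The 10 colon epithelial markers were all well above background on the 4 Ls174T reference arrays, with a summed signal of 124539 to 186433. Of these markers 5 to 8 were also detected on the HEK293T arrays, with a summed signal of 1422 to 2022, and CDH17 and CEACAM5 were at background on all 6. The 8 measured markers of the embryonic kidney line were all detected in HEK293T cells, with a summed signal of 97757 to 145336, and 3 to 5 of them in Ls174T cells, with 1579 to 2081. Well-measured features numbered 18175 and 23161 on the β-catenin pair and 27781 to 31088 on the reference arrays. In bulk RNA, fewer cells of a type and less RNA per cell cannot be told apart.

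The promoters of the 3 genes below are shown because FZD5 is the member that passed the fold threshold after β-catenin depletion and because FZD5 on one side and FZD8 and FZD9 on the other differed most between the lines among members detected in both. Each is the 250 bases upstream of the RefSeq start site, GRCh38.p14, printed 5′ to 3′ on the gene's strand. The FZD5 window is chr2:207769907-207770156 on the minus strand, the FZD8 window chr10:35642297-35642546 on the minus strand, and the FZD9 window chr7:73433528-73433777 on the plus strand. Capitals mark, on either strand, the GC box with the letters GGGCGG, the box with the letters CCAAT, and the TATA box with the letters TATAAA.
FZD5: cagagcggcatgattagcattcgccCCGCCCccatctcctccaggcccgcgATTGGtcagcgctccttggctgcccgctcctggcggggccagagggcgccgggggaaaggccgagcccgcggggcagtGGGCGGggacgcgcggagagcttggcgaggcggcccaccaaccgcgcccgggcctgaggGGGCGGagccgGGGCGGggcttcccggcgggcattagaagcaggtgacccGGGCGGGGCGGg
FZD8: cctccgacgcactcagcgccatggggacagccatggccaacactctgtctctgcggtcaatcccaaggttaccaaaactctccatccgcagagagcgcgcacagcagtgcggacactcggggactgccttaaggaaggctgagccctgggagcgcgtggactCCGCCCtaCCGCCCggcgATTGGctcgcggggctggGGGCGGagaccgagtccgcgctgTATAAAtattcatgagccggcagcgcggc
FZD9: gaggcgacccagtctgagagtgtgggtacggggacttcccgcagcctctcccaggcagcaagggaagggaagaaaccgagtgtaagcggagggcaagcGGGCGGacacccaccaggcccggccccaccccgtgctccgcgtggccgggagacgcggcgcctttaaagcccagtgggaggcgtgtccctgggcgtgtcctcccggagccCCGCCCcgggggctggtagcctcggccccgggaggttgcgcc

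CTTTGAA and CTTTGAT, which are forms of the TCF motif, were in none of the 5 FZD promoters that could be read (FZD1, FZD4, FZD5, FZD8, and FZD9). Of all 35116 promoter windows of this length, 3.80% and 2.26% hold them on either strand. Other forms of the motif were not searched. GGGCGG occurred in all 5, with 6 copies in FZD5, 6 in FZD4, 3 in FZD8, 2 in FZD9, and 1 in FZD1, and 42.6% of all windows hold it. CCAAT occurred once in each of these promoters except that of FZD9, against 32.0% of all windows. TATAAA occurred only in FZD8 of the 5, starting 29 bases before the start site, against 10.7% of all windows. The GC content was 65.2% in FZD1 and FZD8, 72.4% in FZD9, 76.8% in FZD5, and 80.8% in FZD4, where the median of all windows was 58.0%. These counts describe letters in a window and are not measurements of binding.

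Most FZD genes were detected in both lines and differed in level. Between Ls174T si-control cells and HEK293T si-control cells in CM, 7 of the 12 measured FZD probes differed by more than 2-fold, 2 higher and 5 lower in Ls174T cells, where 33.4% of all 27489 measured features passed this threshold, 14.3% higher and 19.1% lower. FZD5 was the member that was higher in Ls174T cells, while FZD7, FZD8, FZD9, FZD3, and FZD10 were lower. A feature counted as measured if, on each array of a comparison, at least 1 channel was more than 2-fold over its local background. The median over the measured FZD probes was 0.24 on the log2 scale and that over all features −0.03. The arrays lay on different slides and only the HEK293T cells received conditioned medium, so line, slide, and medium cannot be told apart here.

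**Figure D1:**
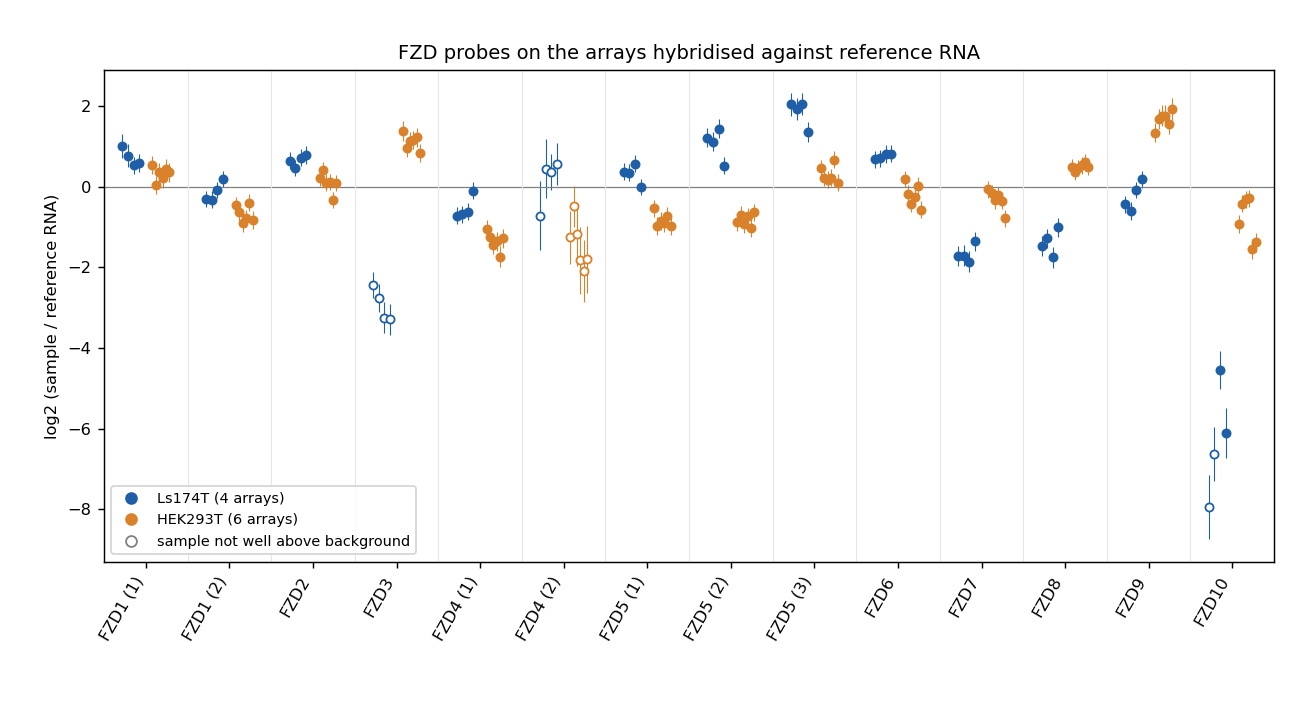
Log2 ratio of each sample to the reference RNA for the 14 FZD probes on the 4 Ls174T and 6 HEK293T reference arrays. Points are single arrays in the order si-control, si-MLLT10, si-BRG1, si-P300 for Ls174T and CM, Wnt3A, si-MLLT10, si-DOT1L, si-BRG1, si-P300 for HEK293T, bars are the program error, and open points are samples not well above background. The Ls174T points of FZD5 lie above the HEK293T points and those of FZD3, FZD7, FZD8, FZD9, and FZD10 below them, and levels of different probes are not comparable.

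In the FZD5 and FZD8 group, the lines showed opposite patterns. FZD5, which acts in the maturation of Paneth cells in the mouse intestine, had log2 ratios to the reference RNA on probe (2) of 1.21 in si-control, 1.12 in si-MLLT10, 1.44 in si-BRG1, and 0.52 in si-P300 Ls174T cells. The 6 HEK293T arrays lay between −1.02 and −0.64 on this probe, with a median of −0.80. All 4 Ls174T values were thus above all 6 HEK293T values, and the difference between the si-control samples was 2.08 ± 0.32, or 4.24-fold.

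Probe (3) of FZD5 read 2.04, 1.92, 2.06, and 1.35 in the same Ls174T samples and between 0.10 and 0.67 in HEK293T cells, a difference of 1.58 ± 0.35 between the si-control samples. Probe (1) read 0.37, 0.35, 0.56, and −0.01 in Ls174T cells and −0.98 to −0.54 in HEK293T cells, a difference of 0.91 ± 0.29. All 3 probes separated the lines without overlap, and probe (1) did so by less than 2-fold. FZD8, the closest relative of FZD5, read −1.47, −1.28, −1.75, and −1.01 in Ls174T cells and 0.37 to 0.61, median 0.49, in HEK293T cells. The log2 difference of Ls174T to HEK293T was −1.95 ± 0.32, or 3.87-fold lower, and its 6 HEK293T values spanned 0.24, the narrowest range of any FZD probe in that line.

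In the FZD1, FZD2, and FZD7 group, FZD7 was the member that passed the threshold. FZD7, a receptor with a role in stem cells of the intestinal crypt, read −1.72 in si-control, −1.71 in si-MLLT10, −1.86 in si-BRG1, and −1.35 in si-P300 Ls174T cells, and between −0.79 and −0.07 in HEK293T cells. Its difference between the si-control samples was −1.65 ± 0.33, or 3.13-fold lower in Ls174T cells. FZD2, a receptor for WNT5A among other ligands, read 0.64, 0.47, 0.72, and 0.78 in Ls174T cells and −0.33 to 0.41 in HEK293T cells, a difference of 0.41 ± 0.30. FZD1 (2) differed by 0.16 ± 0.29, with −0.32 to 0.20 in Ls174T and −0.90 to −0.40 in HEK293T cells. FZD2 and FZD1 (2) did not overlap between the lines over the 10 arrays but differed by less than 2-fold between the si-control samples. FZD1 (1) overlapped, at 0.53 to 1.01 in Ls174T and 0.04 to 0.53 in HEK293T cells. This probe was dim, with a sample signal of 60.9 to 124 on the 10 arrays, and was not measured in this comparison.

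In the FZD4, FZD9, and FZD10 group, FZD9, a gene known from neural and bone tissue, read −0.43, −0.60, −0.08, and 0.19 in Ls174T cells and 1.34 to 1.92, median 1.72, in HEK293T cells. The difference was −1.77 ± 0.32, or 3.41-fold lower in Ls174T cells. FZD10, a receptor that is scarce in most adult tissues, was far dimmer in Ls174T than in HEK293T cells. The FZD10 sample signal was 5.93 in si-control, 15.1 in si-MLLT10, 71.6 in si-BRG1, and 23.6 in si-P300 Ls174T cells, against 914 to 2180 in HEK293T cells. FZD10 was not well above background in si-control and si-MLLT10 Ls174T cells, so its level there has only an upper bound. FZD10 was at least 11.1-fold lower in Ls174T si-control than in HEK293T CM cells. This bound is taken from normalized single-channel values, open to dye bias, with the dim sample at its own value, which was higher than the lowest signal well above background on its array.

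FZD4 (1), the probe of the Norrin receptor that is known from retinal vessels, read −0.72, −0.68, −0.63, and −0.10 in Ls174T cells and −1.74 to −1.04 in HEK293T cells. The si-control samples differed by 0.32 ± 0.31, less than 2-fold. FZD4 (2) was not well above background on any of the 12 arrays and was not measured in any comparison. In the FZD3 and FZD6 group, both known from planar polarity and FZD3 also from axon guidance, FZD3 was not well above background on any Ls174T reference array and read 0.84 to 1.38 in HEK293T cells. FZD3 was at least 3.60-fold lower in Ls174T si-control cells by the same kind of bound. FZD6 read 0.68, 0.70, 0.81, and 0.82 in Ls174T cells, the narrowest spread of any FZD probe in that line, and −0.57 to 0.19 in HEK293T cells, with a difference of 0.49 ± 0.30.

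Over all reference arrays, 12 of the 14 probes had no overlap between the lines, 7 higher and 5 lower in Ls174T cells, counting probes below background in one line. Of the 25650 features compared this way, 27.0% were higher and 30.5% lower in Ls174T cells without overlap. Of the 14 probes, 11 were well above background on all 4 Ls174T reference arrays and 13 on all 6 HEK293T arrays. Within a line, the highest and the lowest array differed beyond error for 5 of the 11 probes detected throughout in Ls174T and for 5 of the 13 in HEK293T cells. Neighbors in the order of levels, which ordering places closest together, did not differ beyond their combined error in any of 33 and 65 steps.

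β-catenin depletion in Ls174T cells addresses which family members depend on active β-catenin in a line whose Wnt pathway is constitutively on. FZD5 was higher after depletion and the other measured members were not. Of the 14 probes, 7 were measured on both arrays, and 2 passed 2-fold, both of FZD5 and both higher, where 5.60% of all 17706 measured features passed it and 4.24% were higher. The median over the 7 probes was −0.17 on the log2 scale, and over all features −0.02.

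**Figure D2:**
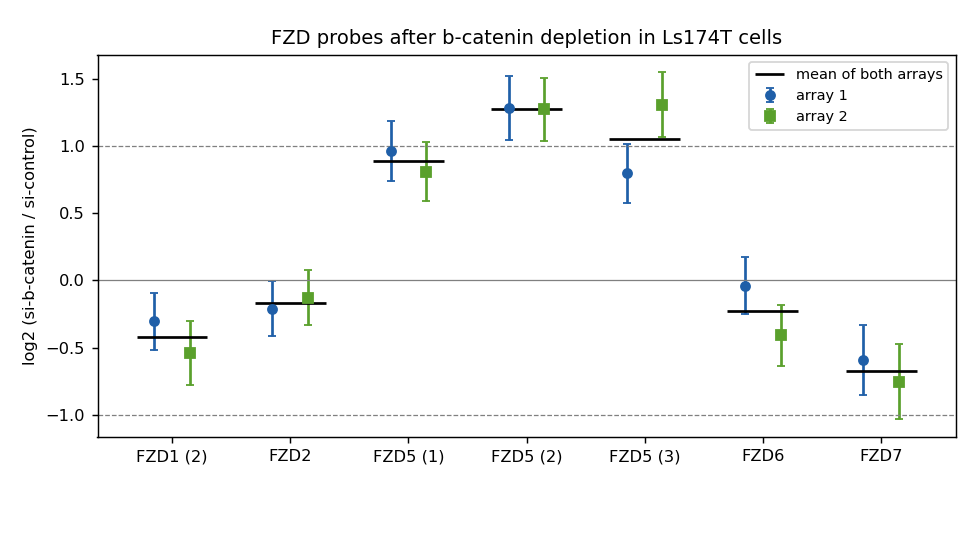
Log2 ratio of β-catenin-depleted to si-control RNA on the 2 arrays with exchanged dyes for the 7 FZD probes measured on both, with the program error as bars and their mean as a black line. Dashed lines mark 2-fold. All 6 FZD5 points lie between 0.80 and 1.31, and FZD7 lies at −0.59 and −0.75.

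FZD5 (2) rose by 1.28 on array 1 and 1.27 on array 2, a mean of 1.28 ± 0.17 or 2.42-fold, with processed signals of 9364 against 3851 and of 6962 against 2886. FZD5 (3) gave 0.80 and 1.31, a mean of 1.05 ± 0.16, and FZD5 (1) gave 0.96 and 0.81, a mean of 0.88 ± 0.16. All 3 probes of the gene pointed the same way on both arrays, probe (1) stayed under 2-fold, and probe (3) passed 2-fold on array 2 alone and in the mean. With normexp background correction and loess, probe (3) came to 0.90, so that probe (2) alone passed the threshold.

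FZD7 had values of −0.59 and −0.75, a mean of −0.67 ± 0.19, beyond error but under 2-fold, and of −0.33 after normexp and loess. FZD1 (2) gave −0.30 and −0.54, a mean of −0.42 ± 0.16. FZD2, at −0.17 ± 0.15, and FZD6, at −0.22 ± 0.15, were within error of 0. FZD1 (1), both FZD4 probes, FZD3, FZD8, FZD9, and FZD10 were not measured on both arrays. Both arrays hold the same RNAs and count as 1 replicate, and over all measured features they differed by a median of 0.16.

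In Ls174T cells depleted of MLLT10/AF10, a partner of the H3K79 methyltransferase DOT1L, no FZD probe with a detected signal passed the threshold. The 11 measured probes other than FZD10 had changes of −0.31 to 0.19, and none of the 12 measured probes was beyond error. FZD10 passed 2-fold, 1 of 12 measured probes against 1.74% of all features and 0.753% upward, but was not well above background in either sample, so no change can be given for it.

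In Ls174T cells depleted of BRG1, the ATPase of SWI/SNF chromatin remodeling complexes, 1 of 12 measured probes passed 2-fold against 5.26% of all features and 3.86% upward, again FZD10. Its processed signal was 5.93 in si-control, not well above background, and 71.6 in si-BRG1 cells. The ratio from single-channel values, with si-control at its own value, was 1.27-fold, which is not a firm minimum. The other detected members had changes between −0.28 for FZD8 and 0.35 for FZD9, and FZD3 was below background on both sides.

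In Ls174T cells depleted of the acetyltransferase p300, 1 of 12 measured probes passed 2-fold, once more FZD10. Of all features 5.90% passed and 4.15% were higher. The FZD10 signal was 23.6 against 5.93, and no fold is given because the same single-channel ratio was under 1. The 3 FZD5 probes were at −0.38 ± 0.29, −0.69 ± 0.31, and −0.69 ± 0.37, all lower and all under 2-fold. FZD4 (1) and FZD9 were at 0.62 ± 0.30 and 0.62 ± 0.29, FZD1 (2) at 0.50 ± 0.29, and FZD8 at 0.46 ± 0.34. The median over the 12 probes was 0.25, and over all features 0.02. FZD5, the member that was higher after β-catenin depletion, had its lowest level of the 4 Ls174T reference arrays on all 3 probes in the p300-depleted cells.

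The si-BRG1 and si-P300 arrays lay on a slide of their own, and dim features in general read higher there. Of the features below background in si-control cells with a detected reference, 46.6% became well above background in si-BRG1 and 32.7% in si-P300 cells, but 7.13% in si-MLLT10 cells, whose array shared the slide of the control. Of these dim features 32.2%, 30.4%, and 6.69%, in that order, rose past 2-fold. The summed signal of 4 endothelial markers went from 37.6 in si-control to 194 in si-BRG1 and 77.8 in si-P300 cells. The other marker lists foreign to the line did not move alike. In the same order, the fibroblast markers summed to 322, 307, and 358 and the leukocyte markers to 790, 587, and 875. The embryonic kidney line markers summed to 2081, 1614, and 1579. The part of the rise of dim features in the FZD10 values was not tested, and slide and siRNA cannot be told apart. After normexp and loess the FZD10 changes were −0.13, 0.27, and −0.30 for MLLT10/AF10, BRG1, and p300 depletion. Set against each other on their common slide, the si-BRG1 and si-P300 samples differed past 2-fold for FZD10 alone, by 1.55 ± 0.78, against 2.28% of all features, and the 3 FZD5 probes were higher in si-BRG1 cells by 0.58, 0.92, and 0.70.

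In HEK293T cells, Wnt3A activates a pathway that is otherwise low. With Wnt3A against CM, no FZD probe passed the 1.5-fold threshold used in this line. Between Wnt3A and CM, 0 of 13 measured probes passed, against 6.72% of all 29012 features, and the median was −0.16 against −0.01 over all features. FZD10 had the highest value, 0.51 ± 0.30, and FZD1 (1) the lowest, −0.49 ± 0.31, and FZD6 was at −0.36 ± 0.29. With the sample channel alone 2 probes passed, FZD6 at −1.19 and FZD5 (1) at −0.66, and FZD1 (1) turned to 0.18. The 3 FZD5 probes did not move together, at −0.44, 0.17, and −0.24. The 2 arrays lay on different slides, the Wnt3A one on a slide that held no other array of the series, so the response cannot be told apart from the slide.

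**Figure D3:**
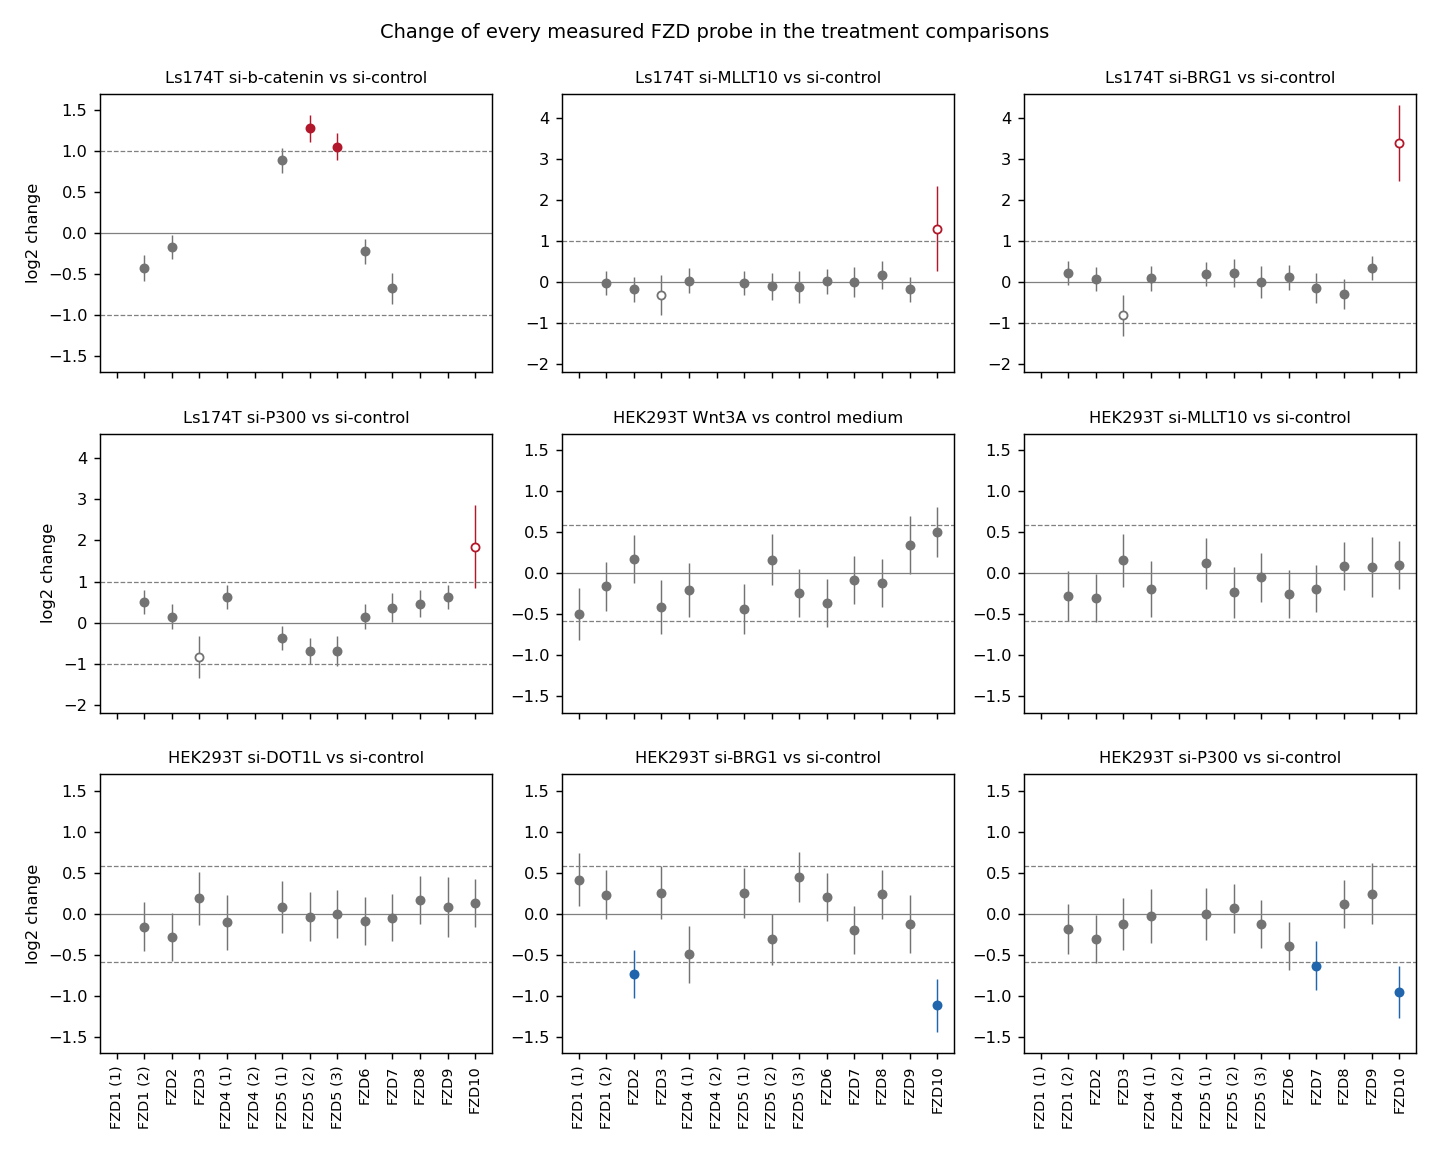
Log2 change of every measured FZD probe in the 9 treatment comparisons, with the program error as bars and dashed lines at the threshold, 1.5-fold for HEK293T and 2-fold for Ls174T. Red and blue points passed the threshold, higher and lower, and open points were not well above background on both sides. FZD5 (2) and (3) passed after β-catenin depletion, FZD2 and FZD10 after BRG1 depletion and FZD7 and FZD10 after p300 depletion in HEK293T cells, and FZD10 in the Ls174T knockdowns from values near background.

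The HEK293T knockdowns share the si-control Wnt3A array as their control, so its chance error enters each of them. After MLLT10/AF10 depletion 0 of 12 measured probes passed 1.5-fold, with changes of −0.30 to 0.16, against 7.43% of all features. After DOT1L depletion 0 of 12 passed, with changes of −0.29 to 0.19, against 5.77%. No probe was beyond error in either. Compared with each other on their common slide these 2 samples differed by −0.20 to 0.04 over the 12 probes, none past the threshold, against 3.65% of all features.

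FZD10 and FZD2 were lower in HEK293T cells depleted of BRG1. Of 13 measured probes 2 passed 1.5-fold, both lower, a smaller share than the 22.2% of all features that passed in either direction and close to the 12.0% that were lower. FZD10 changed by −1.12 ± 0.32, or 2.17-fold, and FZD2 by −0.73 ± 0.29, or 1.66-fold, both with signals well above background. The median over the 13 probes was 0.20. FZD4 (1) was at −0.50 ± 0.35, FZD5 (3) at 0.45 ± 0.30, FZD1 (1) at 0.41 ± 0.32, and the FZD5 probes again differed in sign, with probe (2) at −0.32. With the sample channel alone FZD1 (1) turned to −0.85.

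FZD10 and FZD7 were lower in HEK293T cells depleted of p300. Of 12 measured probes 2 passed 1.5-fold, both lower, where 12.3% of all features passed and 8.26% were lower. FZD10 changed by −0.96 ± 0.32 and FZD7 by −0.63 ± 0.30, a fold of 1.55 that lies just past the threshold. FZD6, at −0.40 ± 0.29, and FZD2, at −0.31 ± 0.29, stayed under it. The si-BRG1 and si-P300 samples shared a slide, on which FZD10 differed between them by −0.16 ± 0.35 and FZD7 by 0.44 ± 0.30, and FZD6 alone passed the threshold, at 0.60 ± 0.29, against 20.1% of all features.

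**Figure D4:**
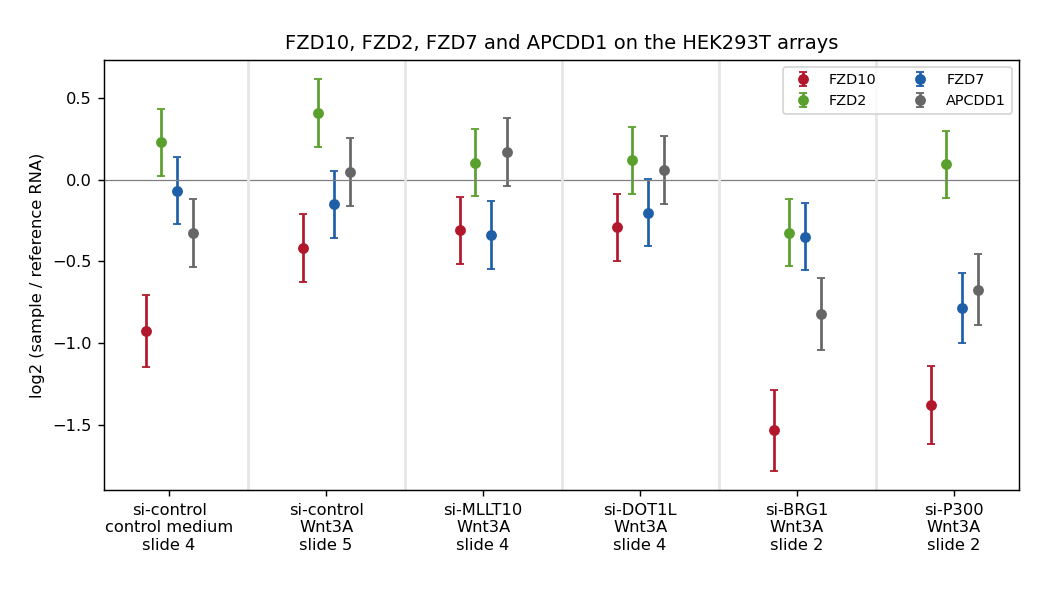
Log2 ratio to the reference RNA of FZD10, FZD2, FZD7, and APCDD1 on the 6 HEK293T arrays, with the program error as bars and the slide of each array below it. FZD10 lies at −0.42 to −0.29 on the Wnt3A arrays with si-control, si-MLLT10, and si-DOT1L, at −0.92 in CM, and at −1.53 and −1.38 with si-BRG1 and si-P300. Levels of different probes are not comparable.

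FZD10 had the widest range of any detected FZD probe over the HEK293T arrays, 1.24 on the log2 scale. Its log2 ratios were −0.29 in si-DOT1L, −0.31 in si-MLLT10, and −0.42 in si-control cells with Wnt3A, −0.92 in si-control cells with CM, and −1.38 in si-P300 and −1.53 in si-BRG1 cells with Wnt3A. The sample signals in this order were 2180, 1950, 1859, 1513, 914, and 1196. Neighbors in the order of ratios did not differ beyond their combined error. The ends did, but they were picked after ordering, which widens their gap. FZD2 ranged over 0.73, FZD7 over 0.72, and FZD6 over 0.76 on these arrays.

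The control for the HEK293T knockdowns was alone on its slide, so values within a slide are given as well. On the slide that carried the CM array, the si-MLLT10 and si-DOT1L samples with Wnt3A were higher than the CM sample in FZD10 by 0.61 ± 0.30 and 0.63 ± 0.30. In these 2 comparisons 2 of 12 and 1 of 12 probes passed 1.5-fold, against 7.82% and 5.92% of all features, and the remaining one was FZD6 with si-MLLT10, at −0.62 ± 0.29. They hold an siRNA as well as Wnt3A and use the same CM array. The si-BRG1 and si-P300 samples had no si-control HEK293T sample on their slide, so their lower FZD10 levels cannot be told apart from the slide.

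The genes whose profile over the 6 HEK293T arrays was most like that of FZD10 were WASHC1, APCDD1, and COL23A1, with Pearson r of 0.996, 0.995, and 0.989. WASHC1 varied by 0.21, within its program error, whereas APCDD1 ranged over 0.99 and COL23A1 over 0.86. APCDD1 read −0.33 in CM, 0.05 in si-control, 0.17 in si-MLLT10, 0.06 in si-DOT1L, −0.82 in si-BRG1, and −0.67 in si-P300 cells with Wnt3A. With 6 arrays such values are a description: of 19364 probes compared, 337 had an r above 0.9, and all points share the reference RNA and the slides.

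Over the 9 treatment comparisons, 105 pairs of a probe and a comparison were measured, and 9 passed the threshold, or 8.57%, where 8.21% of all 242741 pairs of a feature and a comparison passed. The count over the family was thus near that over all features. Of these 9, 6 had both samples well above background: FZD5 (2) and (3) with si-b-catenin, FZD2 and FZD10 with si-BRG1, and FZD7 and FZD10 with si-P300, the last 4 in HEK293T cells. The other 3 were FZD10 in the Ls174T knockdowns. FZD1, FZD3, FZD4, FZD6, FZD8, and FZD9 passed in none of the treatment comparisons in which they were measured, which does not show that they did not change.

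Other genes of the pathway give the setting of these values. After β-catenin depletion in Ls174T cells, 7 of 13 measured probes of the destruction complex and feedback list were lower past 2-fold and 0 higher, with a median of −1.25, where 5.60% of all features passed in either direction, and AXIN2, a feedback scaffold of the destruction complex, was at −1.97 ± 0.19. This list includes the siRNA target CTNNB1. Of the co-receptor and receptor turnover list 2 of 9 probes were lower, both of ZNRF3, at −1.18 ± 0.17 and −1.01 ± 0.16, and 0 higher. No probe of the Wnt and R-spondin ligands (6 measured), the secreted antagonists (2), or the Dishevelled and planar polarity genes (9) passed. In the same cells FZD5 was thus higher while ZNRF3 was lower.

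In the other Ls174T knockdowns at most 2 probes of each list passed 2-fold in a given direction. Of all features 1.74%, 5.26%, and 5.90% passed after MLLT10/AF10, BRG1, and p300 depletion. With p300 depletion 1 of 15 antagonist probes was higher and 2 were lower. Of 14 ligand probes 1 was higher and 1 lower, and of 17 destruction and feedback probes 2 were higher. With BRG1 depletion 2 of 16 destruction and feedback probes were higher, and the other lists had 1 probe past the threshold each. After BRG1 depletion SP5, a TCF-dependent feedback repressor, passed 2-fold at 1.02 ± 0.60 and 1.00 ± 0.54 on its 2 probes, both within error of 0. After p300 depletion SP5 was higher by 1.64 ± 0.51 and 1.60 ± 0.57. Both knockdown arrays lay on a different slide from the control, so siRNA and slide cannot be told apart. The ligand gene WNT4 was lower after p300 depletion by −1.41 ± 0.41. After MLLT10/AF10 depletion no probe of these lists with both samples above background passed. The medians of the 5 lists lay between −0.06 and 0.07 after MLLT10/AF10 depletion and between −0.28 and 0.22 after p300 depletion.

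In HEK293T cells with Wnt3A, 5 of 16 probes of the destruction and feedback list were higher past 1.5-fold and 0 lower, and AXIN2 was at 1.08 ± 0.30. Of the 16 ligand probes 4 were higher and 1 lower, with WNT11 at 1.71 ± 0.41 and 1.12 ± 0.40 and WNT6 at 0.94 ± 0.30. The antagonist DKK1 was at 1.19 ± 0.58, and the co-receptors ROR1 and ROR2 (probe A_23_P158318) at 0.73 ± 0.31 and 0.61 ± 0.30. Of the 17 co-receptor and receptor turnover probes 2 were higher and 1 lower, TSPAN12 at −0.60 ± 0.43. Of the 15 antagonist probes 2 were higher and 1 lower. Of all features 6.72% passed in either direction in this comparison, and the difference between these lists and the FZD probes was not tested.

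With BRG1 depletion in HEK293T cells, 6 of 14 ligand probes were lower and 0 higher, and 6 of 15 antagonist probes were lower and 2 higher, where 22.2% of all features passed and 12.0% were lower. WNT6 was at −1.97 ± 0.34 and WNT11 at −1.33 ± 0.41. Of 17 co-receptor and receptor turnover probes 3 were higher and 2 lower. ROR1 was at −1.12 ± 0.32 and LRP5 at −0.77 ± 0.29. RNF43, which removes Frizzled receptors, was at 0.63 ± 0.30 and TSPAN12 at 0.72 ± 0.44. ROR2 was at 0.63 ± 0.42 on probe A_24_P101704, not the one named with Wnt3A. TSPAN12 and this ROR2 probe were within error of 0. Of 16 destruction and feedback probes 2 were higher and 3 lower. CSNK1A1 was at 0.84 ± 0.31 and APC at 0.61 ± 0.39, and TCF7 was at −1.01 ± 0.38, AXIN2 at −0.81 ± 0.29, and NKD1 at −0.67 ± 0.32. With p300 depletion 3 of 14 ligand probes were lower and 0 higher. Of 15 antagonist probes 5 were lower and 2 higher, where 12.3% of all features passed and 8.26% were lower. WNT6 was at −1.41 ± 0.31, and the antagonist KREMEN1 was higher, at 0.72 ± 0.42. Of 14 co-receptor and receptor turnover probes 1 was lower, ROR2 (A_23_P158318) at −0.97 ± 0.31. Of 16 destruction and feedback probes 1 was lower, AXIN2 at −0.63 ± 0.29, and 0 of either list were higher. FZD10 and FZD2 or FZD7 were lower in the BRG1- and p300-depleted samples, which also share the control array and the slide. After MLLT10/AF10 depletion at most 1 probe of each list passed 1.5-fold in a given direction, against 7.43% of all features. WNT11 was at −0.99 ± 0.42, KREMEN1 at 0.96 ± 0.43, CELSR3 at 0.95 ± 0.32, WNT6 (A_24_P208513) at 0.76 ± 0.32, and ZNRF3 at 0.59 ± 0.32. After DOT1L depletion 1 of 15 ligand probes was lower, WNT10A at −0.84 ± 0.32. Of 14 antagonist probes 2 were higher, with KREMEN1 at 0.81 ± 0.41, and 5.77% of all features passed.

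Between the si-control samples of the lines, RNF43 was higher in Ls174T cells by 4.29 ± 0.42 and AXIN2 by 3.13 ± 0.38. Of 16 co-receptor and receptor turnover probes 1 was higher past 2-fold and 5 lower. Of 12 ligand probes 2 were higher and 6 lower, where 14.3% of all features were higher and 19.1% lower. Among ligand list probes detected in both samples, WNT10A and WNT4 were higher by 3.56 ± 0.38 and 3.23 ± 0.40. WNT6 and WLS were lower by −1.97 ± 0.40 and −1.13 ± 0.32. The receptor SMO, which carries a Frizzled-like domain but acts in Hedgehog signaling, was lower by −6.26 ± 0.60, and the TCF family factor LEF1 by −3.37 ± 0.53. Of the 5 lists, the ligands had the lowest median, −0.76, and the destruction and feedback list the highest, 0.49.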

How the data were processed

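RNA of 12 samples was hybridized to Agilent Whole Human Genome arrays, printed on 5 slides. The authors read them with Agilent Feature Extraction (10.5.1.1 in the file headers, 8.5.1.1 in the submitters' processing notes). The deposited intensities are median signals, local backgrounds, and processed signals, from which background was removed and whose dyes were balanced array by array. Its log10 ratios, also deposited, divide processed Cy5 by Cy3 signal and carry an error from the program. The deposited series table holds the same log10 ratios, with 1 array of the dye-exchanged pair turned.

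Ratios were put on the log2 scale with the sample, or the β-catenin-depleted RNA, as numerator. For β-catenin the pair was averaged, and the other changes are differences between 2 arrays, so the error is the combined program error. Features had to exceed 2-fold local background in at least 1 channel of each array involved, and control spots and outlier-marked features were left out. After the study's methods, a change had to pass 1.5-fold in HEK293T and 2-fold in Ls174T cells, and 2-fold was also used between the lines. The precision is limited by 1 biological replicate per condition, and no test was made. Symbols came from RefSeq accessions through a RefSeq gene table, 27612 of 28546 features with an accession, and no genome coordinates of probes are given. Bounds and single-channel ratios used normexp (offset 50), loess, and Aquantile normalization in limma 3.58.1 (R 4.3.3). On the log2 scale the offset raises dim values most. Promoter windows are RefSeq's, GRCh38.p14. Python 3.11.15, pandas 2.3.3, and numpy 2.4.6 were used. The code was checked on simulated data with large changes and noise below the program error, which does not test calls near the threshold or near background.

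Named genes are every FZD probe, the siRNA targets, up to 3 genes in each direction per pathway list and comparison that passed the threshold with both samples well above background, and the 3 genes most like the FZD member with the widest HEK293T range. The members and lists were chosen with earlier results of these data known. Alternatives were normexp (offset 50) with loess, the sample channel alone scaled to its 75th percentile, other filters and thresholds, the series table, and leaving out each array of the pair.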

Additional observations from a re-analysis of the deposited data

Results flagged for a closer look

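The values of FZD10 under 2 siRNAs were above 0 in Ls174T and below 0 in HEK293T cells, but those in Ls174T cells do not settle a direction, since the si-control sample there was not well above background. With si-BRG1 its change was 3.39 in Ls174T and −1.12 in HEK293T cells. With si-P300 it was 1.85 in Ls174T and −0.96 in HEK293T cells. The difference between the lines was not tested, since each value rests on 1 array against 1. After normexp and loess the Ls174T values were 0.27 and −0.30 and the HEK293T values −1.09 and −0.93, so that with si-P300 both lines then had the same sign. From single-channel values the ratio with si-BRG1 in Ls174T cells was 1.27-fold, with the undetected si-control sample at its own value. This ratio is not a firm minimum, and with si-P300 no fold could be given.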

How the results depend on the processing

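The counts of FZD probes past the threshold rest on few values. They are given here in the order β-catenin, MLLT10/AF10, BRG1, and p300 in Ls174T, then Wnt3A, MLLT10/AF10, DOT1L, BRG1, and p300 in HEK293T, then the lines, where the reported counts were 2, 1, 1, 1, 0, 0, 0, 2, 2, and 7. With normexp and loess they were 1, 0, 0, 0, 0, 0, 0, 2, 2, and 7. With the sample channel alone they were 2, 1, 1, 1, 2, 0, 0, 3, 2, and 7. With both channels required above background they were 2, 0, 0, 0, 0, 0, 0, 2, 2, and 5. With no filter on low signal they were 2, 2, 2, 2, 1, 1, 1, 3, 3, and 7. With the other threshold, 1.5-fold in Ls174T and between the lines and 2-fold in HEK293T, they were 4, 1, 2, 6, 0, 0, 0, 1, 0, and 8. Requiring a change beyond error as well gave 2, 0, 1, 0, 0, 0, 0, 2, 2, and 7. Keeping outlier-marked features, using the series table, and centering on all features, the last chosen after seeing the data, left every count as reported. Leaving out 1 array of the β-catenin pair gave 1 to 2, with 1 without the second array, because FZD5 (3) reads 0.80 on the first.

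Of the single probe values, those of FZD10 in Ls174T turned sign with normexp and loess, to −0.13 after MLLT10/AF10 and −0.30 after p300 depletion. A further 6 of 117 values moved by more than their program error with normexp and loess and 11 of 117 with the sample channel alone, in which the median of all features moved to −0.12 for BRG1 depletion in HEK293T cells and for the lines. With normexp and loess, calls over all features went from 1070 higher and 389 lower to 36 and 118 for BRG1 depletion in Ls174T cells, and from 1164 and 493 to 55 and 199 for p300. With the sample channel alone they went from 2848 higher and 3376 lower to 3116 and 7249 for BRG1 depletion in HEK293T cells, from 1110 and 2293 to 1162 and 5253 for p300, and from 1172 and 777 to 4682 and 1092 for Wnt3A. The cause of these changes was not tested. No paired analysis was possible because each condition has 1 sample. Signals near background limit FZD10 and FZD3 in Ls174T cells, FZD1 (1), and FZD4 (2), and 1 replicate per condition limits all values.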
